A study of Bos taurus with 24 samples.

Results

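The genes described here encode factors that splice pre-mRNA or form and tail its 3′ end. They were taken by symbol from the deposited expression table as every gene whose symbol starts with SNRP, SF3A, SF3B, SRSF, LSM and a digit, PRPF, U2AF, HNRNP, CPSF, CSTF or PAPOL. There were 87 such genes among the 11306 genes listed, and all 87 were among the 9526 genes with a value above 0.1 FPKM in at least 1 library, which were the genes tested. FPKM is the number of sequenced fragments divided by a length and by the depth of the library. The length used here was read from the steps between low values, and for 83 of 84 members (98.8%), and for 99.3% of 8595 genes, it followed the listed span of the gene from start to stop, introns included, within 2%. The exception was PRPF31, whose solved fragment numbers nearly all share a common factor. Its step was thus probably taken too small, and its length and fragment estimates are not reliable. With division by span, a gene with long introns has a low FPKM, so levels and ranks set between genes hold per span and not per transcript. The ratio of the FPKM of 1 gene between groups keeps the same divisor. A difference on the log2(FPKM + 1) scale used below is smaller where the FPKM is low. The genes fell into 12 proteins of the Sm ring and of the U1 and U2 particles, 11 LSm proteins, 12 subunits of SF3A, SF3B and U2AF, 10 PRPF proteins, 10 SR proteins, 19 hnRNP proteins, 10 cleavage and polyadenylation factors (CPSF and CSTF) and 3 poly(A) polymerases (PAPOL). The names set the grouping, and a few members work elsewhere. LSM1 acts in mRNA decay, LSM10 belongs to the U7 particle that cuts histone mRNA, LSM14A is a protein of cytoplasmic granules, and CPSF3L is the older symbol of the Integrator nuclease INTS11.

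RNA was measured in oocytes of adult, non-lactating and non-pregnant Angus-based Bos taurus beef cows. There were 4 groups of 6 libraries, which were germinal vesicle (GV) oocytes collected in May, GV oocytes collected in July, metaphase II (MII) oocytes collected in May and MII oocytes collected in July. May stands for spring and July for summer, when the animals met heat stress. GV oocytes were arrested at prophase as they came from the follicle, and MII oocytes had been matured in vitro. According to the methods each library was a pool of 4 oocytes of 1 animal, freed of cumulus cells and amplified with a Smart-seq2 kit from polyadenylated RNA. The methods describe a single herd that was collected from in both months, with part of each collection matured, so groups can share cows. The labels do not say which cow gave which library, and the fits treat all libraries as separate. Where transcripts are captured by their tail, a lower level and a shorter tail cannot be told apart, and neither can a lower level and less RNA per oocyte, since every library was scaled to the same total.

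Introns are removed by the spliceosome, which is built on each intron from the U1, U2, U4, U5 and U6 particles. Each of the first 4 of these carries a ring of Sm proteins, and U6 carries a ring of LSm proteins instead. U2AF marks the 3′ splice site, SF3A and SF3B hold U2 on the branch point, and SR and hnRNP proteins help to decide which sites are used. CPSF and CSTF recognise the polyadenylation signal and its downstream element, CPSF3 cuts the RNA, and a poly(A) polymerase adds the tail. Fully grown oocytes are nearly silent in transcription, and between GV and MII the stored mRNAs are degraded, kept, or given longer tails in the cytoplasm, a process that uses the CPSF complex again.

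From GV to MII, the largest change in FPKM among these genes was in a small SF3B subunit, SF3B5, whose transcript fell from 770 ± 169 to 161 ± 24.8 FPKM (SD, n = 6 each) in May and from 768 ± 217 to 171 ± 40.4 FPKM in July. Within the Sm ring, the LSm ring and SF3B, some subunits rose while others fell. SNRPF, SNRPD1, LSM7, SF3B1 and LSM12 were higher in MII oocytes in both months at an adjusted p under 0.05, and SF3B5, U2AF1L4, LSM10, LSM3, LSM2, SNRPD2, SNRPA and PRPF31 were lower in both. Between May and July no member passed an adjusted p of 0.05 at either stage.

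Before the values, 3 libraries have to be named. The relative depth, read from the steps between low values, ran over a 115-fold range and was lowest in GV May replicate 6 (0.0565 of GV May replicate 1), MII May replicate 6 (0.149) and GV July replicate 2 (0.393). The other libraries lay between 0.542 and 6.51. The 3 libraries had been marked beforehand for low mapping, and their mapping rates are not given here. In these 3 libraries the members as a class stood high. The median deviation of the members from the other 5 libraries of the group, on the log2(FPKM + 1) scale, was 0.69 in GV May replicate 6, 0.61 in MII May replicate 6 and 0.82 in GV July replicate 2, against 0.12, 0.04 and 0.14 over all genes tested. In MII July replicates 4 and 6, the libraries next in depth, it was 0.48 and 0.55. The shift was found chiefly in hnRNP proteins, with medians of 2.18, 1.18 and 1.79 in the 3 libraries, and in SR proteins, with 2.18, 0.81 and 1.44, whereas the LSm proteins had medians of -0.24, -0.18 and -0.13. Of the 87 members, 41 (47.1%) had their highest value of the group in all 3 libraries, against 23.3% of the genes tested, and 3 (3.45%) had their lowest, against 9.15%. HNRNPK, an RNA-binding hnRNP protein, was at 10.5 FPKM in GV May replicate 6, where the median of the group was 0.727 FPKM, an example chosen after its values were seen. The count of members passing in each comparison is therefore given with and without these 3 libraries.

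**Figure D1:**
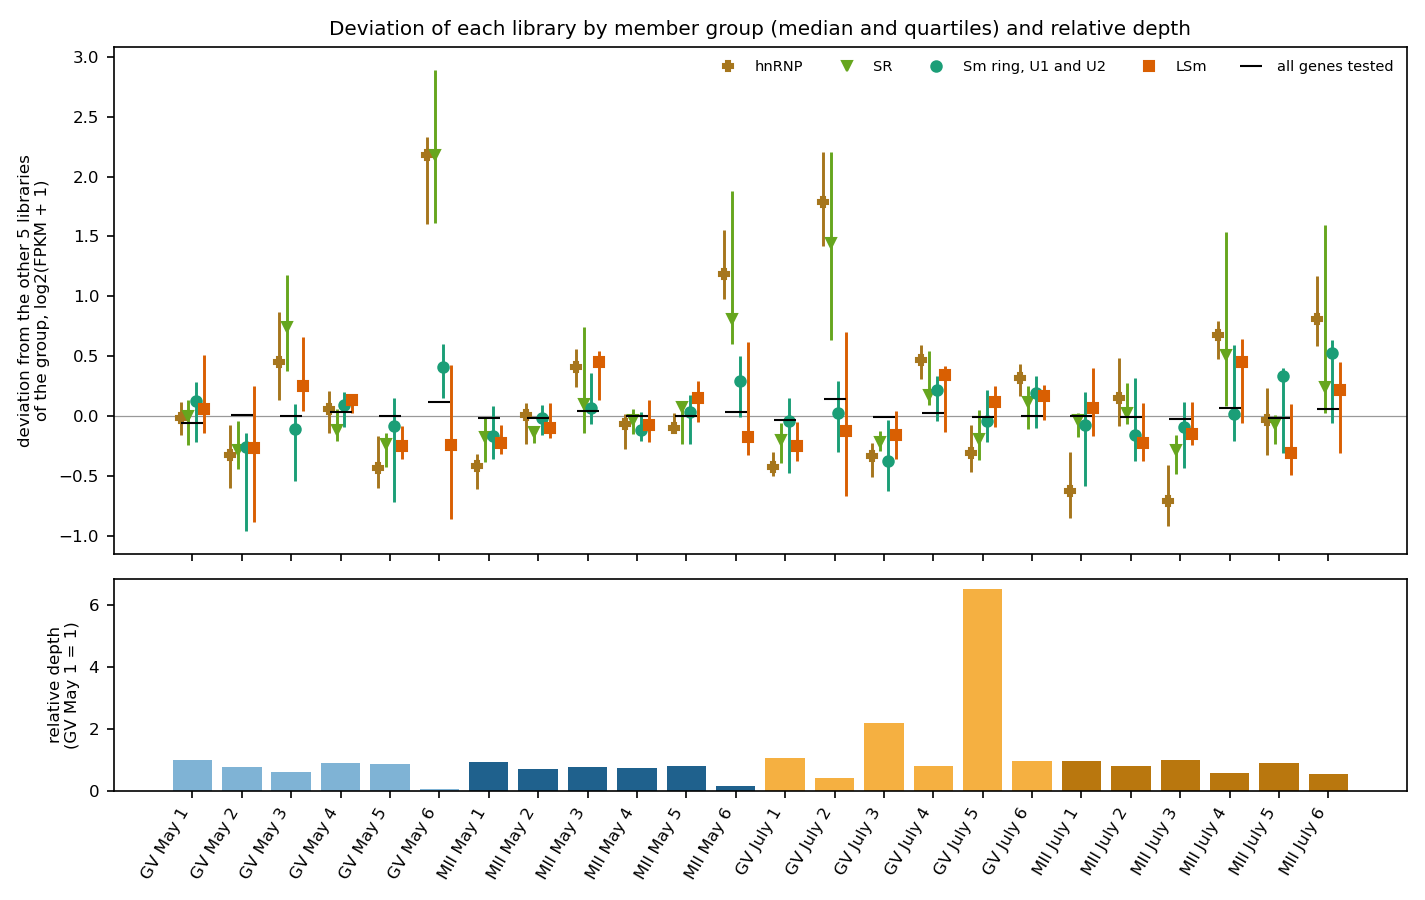
Upper panel, deviation of each library from the median of the other 5 libraries of its group on the log2(FPKM + 1) scale, with symbols for the median and bars for the quartiles over hnRNP, SR, Sm and U1/U2, and LSm members, and a black dash for all genes tested; lower panel, relative depth with GV May replicate 1 set to 1. The hnRNP and SR medians stand highest in GV May 6, MII May 6 and GV July 2, at relative depths of 0.0565, 0.149 and 0.393.

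Markers of other cells differed between libraries as well. The labelled cell type carried its markers, since 12 oocyte markers found in the table summed to between 940 and 2320 FPKM in every library. Of 19 cumulus and granulosa markers, the sum ran from 34 to 124 FPKM in GV oocytes of July, 35 to 162 FPKM in MII oocytes of May, 27.1 to 85.3 FPKM in MII oocytes of July, and 38.1 to 588 FPKM in GV oocytes of May. The 588 FPKM of GV May replicate 6 were mostly KRT18 (392 FPKM) and KRT8 (146 FPKM), both keratins. AMH, FST, CYP11A1, CYP19A1 and AREG were at the lowest value of the table in this library. Others of the list were above it, among them INHA at 1.73, VIM at 2.16, TNFAIP6 at 0.322 and PTGS2 at 8.06 FPKM. The 162 FPKM and 124 FPKM were those of MII May replicate 6 and GV July replicate 2, where KRT18 was at 70.8 and 34.4 FPKM. It was at 16.6 and 8.93 FPKM in MII July replicates 6 and 4 and at most 2.4 FPKM in every other library. In GV May replicate 3, whose sum was 199 FPKM, AMH, INHA, FST and VIM were at 13.4, 37.2, 20.3 and 75.7 FPKM. KRT8 (10.2 FPKM) and GREM1 (0.125 FPKM) were the lowest of the group in that library. FSHR, a defining granulosa receptor, was at the lowest value in both MII groups, and AMH in MII oocytes of May. Without GV May replicate 3, 11 members were higher and 9 lower in MII oocytes of May at an adjusted p under 0.05, against 10 and 8 with it. What these cells, the low depth or the low mapping add to the values of a single library was not tested.

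The expression level of the members spanned a wide range. Averaged over the 24 libraries, 3 members were above 100 FPKM, 23 between 10 and 100, 45 between 1 and 10, and 16 at 1 or less. In GV oocytes SF3B5 alone made up 40.1% of the summed FPKM of the members in May and 41.7% in July, and SNRPD2 came next with 6.59% and 5.92%. SF3B5 has the shortest span of the members, 674 bases, and these shares rest on that divisor. By fragments not divided by length, SNRPF led with a median of 10172 a library, and SF3B5 with 1168 was 16th of the 84 members solved. In FPKM, SNRPF was highest in MII oocytes, with 13.2% in May and 15.5% in July. SF3B5 then held 11.3% in May and 10.5% in July. Together the members took 2.21% ± 0.394 of the summed FPKM of the table in GV oocytes of May and 2.12% ± 0.303 in July, and 1.64% ± 0.308 and 1.87% ± 0.373 in MII oocytes (SD, n = 6 each). Set side by side, the 4 groups overlapped in this share.

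Differences between GV and MII oocytes were fitted with limma on log2(FPKM + 1) in each month apart. In May, 10 members were higher in MII oocytes at a Benjamini-Hochberg adjusted p under 0.05, against 9.45% of all genes tested, and 8 were lower, against 14.7%. In July 11 members were higher, where 7.67% of all genes were, and 11 were lower, where 23.1% of all genes were. The thresholds of the study were an unadjusted p under 0.05 with a fold change over 2. The paper used them with the Partek Flow GSA algorithm, and here they were set on the limma fits, so the counts are not those of the paper. The fold change was that of FPKM + 1, which is smaller than that of FPKM at low levels. Set in this way, the thresholds called 4 members higher and 7 lower in May, against 3.57% and 8.25% of the genes tested. In July they called 4 higher and 8 lower, against 2.2% and 9.26%. As a share of the 87 members, the called counts were 4.6% and 8.05% in May and 4.6% and 9.2% in July, which is near the background except for the higher genes of July. The median difference over the members was 0.21 in May and 0.20 in July on the log2 scale, against -0.03 and -0.02 over all genes, and 67.8% and 63.2% of the members had a positive difference, against 44.2% and 42.1% of all genes. Without the 3 libraries of low depth, 24 members were higher and 11 lower in May and 25 higher and 11 lower in July, while over all genes 1841 were higher in May and 1244 in July in place of 900 and 731. The called members were then 8 and 7 in May and 10 and 6 in July. The shares of all genes that were lower or called without these libraries are not given here. The balance moved with the scaling. Under median-of-ratios scaling 7 were higher and 10 lower in May and 14 each in July. Under quantile normalization they were 22 against 7 and 35 against 10. The shares of all genes under these scalings are not given here. Leaving out GV May replicate 6 alone gave 23 higher members in May, and the count fell to 6 without GV May replicate 5 or without MII May replicate 2, 4 or 5.

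The changes of the 2 months were measured in separate libraries. Over the 87 members the May and July differences had a Pearson correlation of 0.90 and a Spearman correlation of 0.82, given as a description across genes that share libraries within each month, and the same values over all 9526 genes were 0.93 and 0.88. The difference had the same sign in both months for 71 members (81.6%), against 85.5% of all genes. No member passed in opposite directions, 14 passed in 1 month, 5 were higher in both, and 8 were lower in both. Over all genes, 4.78% were higher and 13.2% lower in both months. Without the 3 libraries 16 members were higher and 10 lower in both, among them all 5 and all 8 named above. More genes of the table were higher in this setting as well. The share of all genes passing in both months without these libraries is not given here, so the rise is not read as particular to the members.

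**Figure D2:**
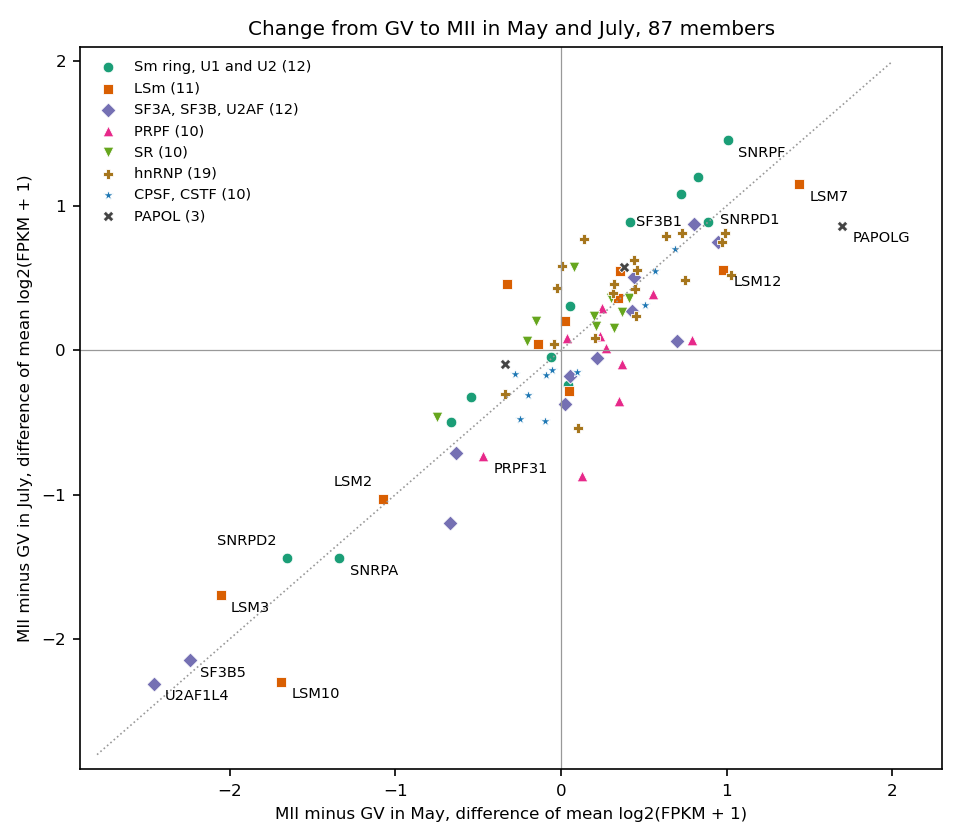
Difference between MII and GV oocytes in May (horizontal axis) and July (vertical axis) for the 87 members, each axis in log2(FPKM + 1); symbols mark the member groups with their sizes and the dotted line marks equal changes. SF3B5 and U2AF1L4 lie at the lower left at about -2.2 to -2.5 on both axes, LSM7 and SNRPF at the upper right, and PAPOLG below the line.

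The Sm ring is made of SNRPB, SNRPD1, SNRPD2, SNRPD3, SNRPE, SNRPF and SNRPG, and its transcripts moved in different directions. SNRPD2 had values of 89.7, 126 and 180 FPKM (lowest, median and highest) in GV oocytes of May and 30.7, 38.9 and 48.4 FPKM in MII oocytes of May. In July the values were 73.9, 108 and 141 FPKM in GV and 25.1, 37.9 and 54.4 FPKM in MII oocytes. All MII libraries lay below all GV libraries of the same month, with a difference of -1.66 ± 0.20 (SE) in May and -1.44 ± 0.21 in July on the log2 scale (limma, adjusted p = 0.000191 and 0.000348).

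SNRPF, which sits next to SNRPE in the ring, went the other way. It was at 36.2, 115 and 156 FPKM in GV and 146, 190 and 221 FPKM in MII oocytes of May, so that 1 GV library reached the MII range. In July it was at 56, 96.7 and 110 FPKM in GV and 168, 251 and 327 FPKM in MII oocytes, with no overlap. The log2 difference was 1.01 ± 0.32 in May and 1.46 ± 0.23 in July (limma, adjusted p = 0.0365 and 0.000553). The May result did not pass under median-of-ratios scaling (adjusted p = 0.0524) or without GV May replicate 5 or any of MII May replicates 2 to 6 (0.0562 to 0.0828).

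SNRPD1, which binds next to SNRPD2, rose from 43.8 ± 12.4 to 80 ± 11.9 FPKM in May and from 48 ± 17.3 to 84.9 ± 12.8 FPKM in July. Its log2 difference was 0.89 in both months, with an SE of 0.22 and 0.26 (limma, adjusted p = 0.0124 and 0.0202). Under median-of-ratios scaling neither month passed (limma, adjusted p = 0.0853 and 0.0801). SNRPD1, like LSM2, LSM7, SF3A2 and SRSF3, lies on the same strand within the listed span of another gene, here SERPINB2.

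SNRPE and SNRPG, the remaining small subunits, rose in July by 1.08 ± 0.25 and 1.20 ± 0.24 on the log2 scale (limma, adjusted p = 0.00564 and 0.00274). In that month all of their MII libraries lay above all GV libraries, at 122 to 234 FPKM against 50.4 to 110 FPKM for SNRPE and at 75.5 to 153 against 32.3 to 63.2 FPKM for SNRPG. In May the differences were 0.72 ± 0.26 and 0.83 ± 0.29, with an adjusted p of 0.056 for both. The difference between the months is tested with the other season results. SNRPD3 differed by 0.06 in May and 0.30 in July, and SNRPB by -0.66 and -0.50, none of which passed.

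**Figure D3:**
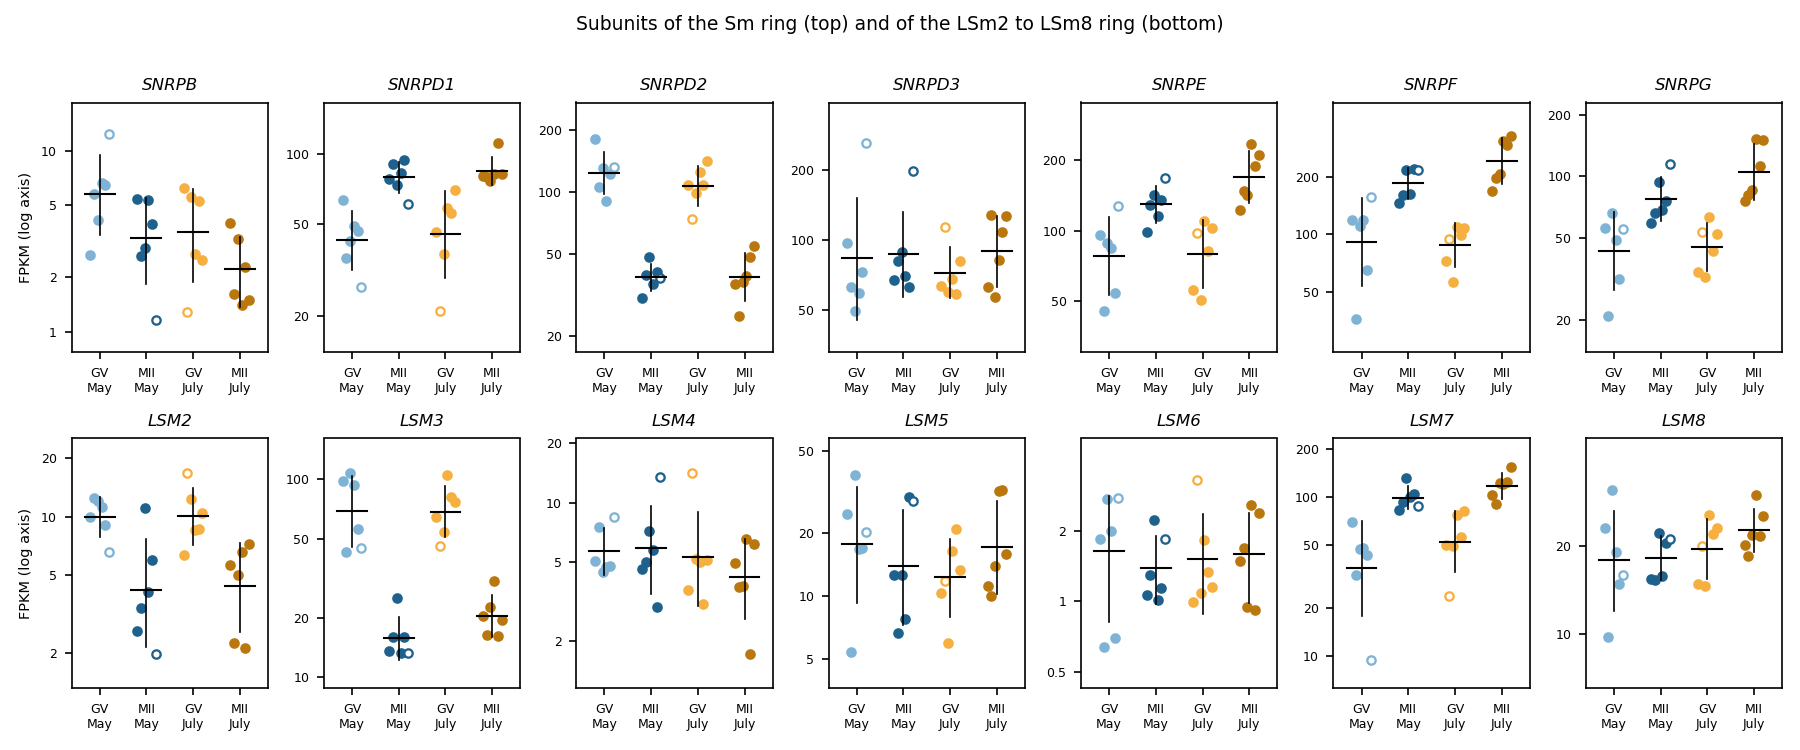
FPKM on a log axis of the 7 subunits of the Sm ring (top row) and of the LSm2 to LSm8 ring (bottom row) in each of the 24 libraries, 6 per group; the line is the mean and the bar the SD taken on the log2(FPKM + 1) scale and converted back, and open circles are GV May 6, MII May 6 and GV July 2. SNRPD2 and LSM3 sit lower in MII than in GV oocytes in both months, whereas SNRPF, SNRPD1 and LSM7 sit higher.

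The proteins that belong to U1 or U2 alone also differed. SNRPA, which binds a stem loop of U1 RNA, was at 2.14, 3.96 and 10.8 FPKM in GV and 0.686, 1.1 and 1.57 FPKM in MII oocytes of May, and at 2.17, 3.27 and 8.2 FPKM against 0.253, 0.706 and 1.35 FPKM in July. The groups did not overlap in either month, and the log2 difference was -1.34 ± 0.32 and -1.44 ± 0.27 (limma, adjusted p = 0.00892 and 0.00165). SNRPB2, its counterpart in U2, rose in July from 40.4 ± 9.04 to 77.6 ± 27.1 FPKM (adjusted p = 0.0141) and was at 44.6 ± 15.3 and 58.6 ± 17.3 FPKM in May (limma, adjusted p = 0.289). SNRPC, the U1 protein that touches the 5′ splice site, was at 42.2 ± 6.45 FPKM in GV and 28.6 ± 4.73 FPKM in MII oocytes of May, a difference of -0.54 that missed the threshold at an adjusted p of 0.0503 in limma. SNRPN, the imprinted relative of SNRPB, stayed under 0.1 FPKM on average in all 4 groups, and its reads cannot be parted from those of SNURF, which lies on the same strand of the same locus.

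The summed level of the 12 Sm, U1 and U2 genes was 606 ± 176 FPKM in GV and 711 ± 129 FPKM in MII oocytes of May, and 540 ± 89.2 and 866 ± 187 FPKM in July. In this group 2 members rose and 2 fell in May, and 5 rose and 2 fell in July, while 8 and 5 did not pass.

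Of the 11 LSm genes, 2 rose and 3 fell in each month. LSM3 and LSM2, neighbours in the ring on U6 RNA, fell. LSM3 was at 43, 74.5 and 106 FPKM in GV and 13.2, 14.7 and 25.2 FPKM in MII oocytes of May, and at 46, 70.1 and 104 against 16.2, 19.8 and 30.6 FPKM in July. No MII library reached the GV range, and the log2 difference was -2.05 ± 0.28 and -1.70 ± 0.23 (limma, adjusted p = 0.000408 and 0.000165). LSM2 fell from 10.2 ± 2.18 to 4.85 ± 3.35 FPKM in May and from 10.5 ± 3.69 to 4.81 ± 2.17 FPKM in July (limma, adjusted p = 0.0262 and 0.0198). Its groups overlapped in both months, and 6 of 20 alternative settings in May left it at an adjusted p between 0.0521 and 0.0879.

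LSM7, a subunit of the same ring, rose. Its values were 9.42, 45 and 69.5 FPKM in GV and 82.8, 96.7 and 132 FPKM in MII oocytes of May, and 23.8, 53 and 81.2 against 90.3, 121 and 155 FPKM in July. The groups did not overlap, with log2 differences of 1.44 ± 0.38 and 1.15 ± 0.27 (limma, adjusted p = 0.0164 and 0.00703), and LSM7 passed under every alternative tried, 20 in May and 21 in July. The lowest GV values, 9.42 and 23.8 FPKM, were those of GV May replicate 6 and GV July replicate 2. LSM4, LSM5, LSM6 and LSM8, the other subunits of the ring, differed by -0.33 to 0.05 in May and by -0.28 to 0.46 in July on the log2 scale, and none passed.

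LSM10, which takes the place of a Sm protein in the U7 particle, was at 4.17, 31.3 and 60.4 FPKM in GV and 6.05, 7.97 and 9.92 FPKM in MII oocytes of May. The lowest GV value was that of GV May replicate 6, and the other 5 GV libraries lay between 25.7 and 60.4 FPKM. In July it was at 21, 28.2 and 46.1 FPKM in GV and 2.83, 4.42 and 10.8 FPKM in MII oocytes, with no overlap. Its log2 difference was -1.69 ± 0.50 and -2.29 ± 0.33 (limma, adjusted p = 0.0262 and 0.000244). The May result did not pass under quantile normalization or without GV May replicate 2, 4 or 5 (adjusted p = 0.052 to 0.0627). LSM12, a LSm-domain protein outside the ring, rose from 3.63 ± 0.927 to 8.09 ± 1.48 FPKM in May and from 3.42 ± 0.427 to 5.67 ± 1.74 FPKM in July (limma, adjusted p = 0.00332 and 0.0322). In July it passed in 12 of 21 alternative settings, failing under median-of-ratios scaling (0.0794) and without any of GV July replicates 1, 3, 4, 5 and 6 or MII July replicates 1, 2 and 3 (0.0555 to 0.0656).

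In the SF3A, SF3B and U2AF group 2 members rose and 2 fell in May, and 1 rose and 2 fell in July. SF3B5 lies on chromosome 9 at 82549526 to 82550199 (UMD3.1.1, minus strand). It was at 564, 748 and 980 FPKM in GV and 139, 151 and 205 FPKM in MII oocytes of May, and at 414, 799 and 1032 against 101, 174 and 222 FPKM in July. All 12 GV libraries lay above all 12 MII libraries. The log2 difference was -2.24 ± 0.18 in May and -2.15 ± 0.25 in July (limma, adjusted p = 1.57e-05 and 6.19e-05), and GV levels were 4.8 and 4.5 times the MII levels. With 6 libraries a side and no overlap, the exact permutation test on the mean log2 values must give its smallest two-sided p, 0.00216, as it did in each month.

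SF3B6, the subunit that touches the branch point adenosine, was at 51.3 ± 19.2 FPKM in GV and 67.2 ± 10.9 FPKM in MII oocytes of May, and at 52.7 ± 14.2 and 73.3 ± 12.5 FPKM in July. Its log2 differences of 0.44 and 0.51 did not pass (limma, adjusted p = 0.197 and 0.098). SF3B1, the scaffold of the complex, was at 1.44 ± 0.788 FPKM in GV and 3.2 ± 1.01 FPKM in MII oocytes of May, and at 1.63 ± 0.872 and 3.77 ± 1.18 FPKM in July. It rose by 0.81 ± 0.24 and 0.88 ± 0.23 on the log2 scale (limma, adjusted p = 0.0275 and 0.013), although 7 of 20 settings in May, each without 1 library, left it at an adjusted p between 0.0519 and 0.0667. SF3A3, a subunit of SF3A, rose in May from 5.38 ± 1.89 to 11.1 ± 2.05 FPKM (limma, adjusted p = 0.00884) and was at 8.63 ± 5.83 and 14.4 ± 6.03 FPKM in July (0.126). SF3A1, another SF3A subunit, was lower in MII oocytes by 0.67 in May and 1.19 in July on the log2 scale and missed the adjusted threshold in both (0.0952 and 0.0681), with 4.86 FPKM in GV May replicate 6 and 15.1 FPKM in GV July replicate 2 against group medians of 1.24 and 2.1 FPKM.

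**Figure D4:**
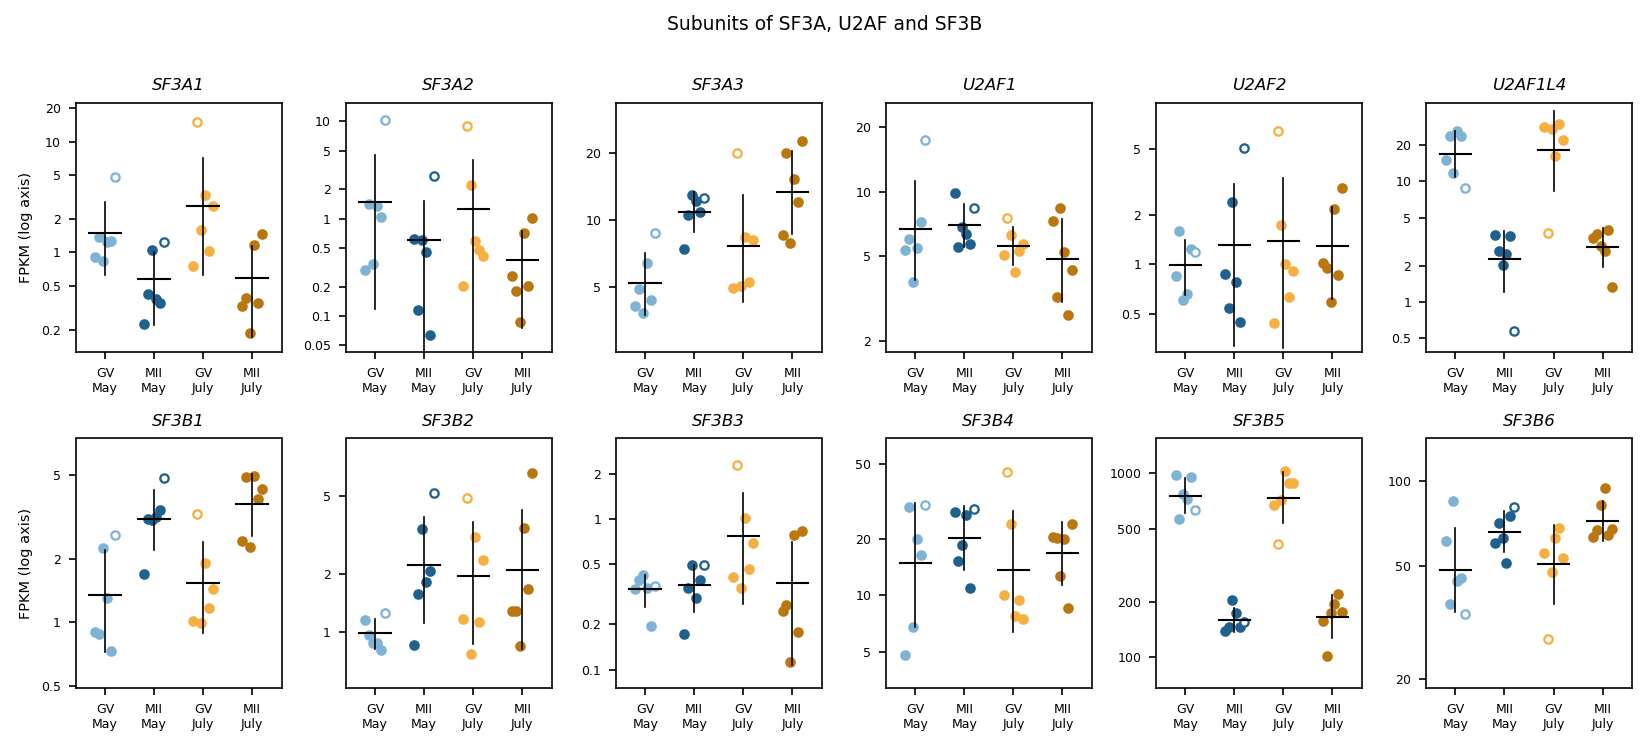
FPKM on a log axis of the SF3A, U2AF and SF3B subunits in each of the 24 libraries, drawn as for the rings, with the mean and SD taken on the log2(FPKM + 1) scale and open circles for GV May 6, MII May 6 and GV July 2. SF3B5 and U2AF1L4 sit lower in MII oocytes, and SF3B1 sits higher.

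U2AF1L4, a relative of the small U2AF subunit, fell the most on the log2 scale. It was at 8.88, 19.4 and 26.3 FPKM in GV and 0.57, 2.56 and 3.62 FPKM in MII oocytes of May, and at 3.73, 24.9 and 30.2 against 1.32, 3.13 and 3.91 FPKM in July. In July only GV replicate 2 (3.73 FPKM) lay within the MII range. The log2 difference was -2.46 ± 0.33 and -2.31 ± 0.42 (limma, adjusted p = 0.000322 and 0.00137). U2AF1, the main small subunit, and U2AF2, the large one, did not pass in either month, at differences of 0.05 and -0.18 for U2AF1 and 0.22 and -0.06 for U2AF2.

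Among the 10 PRPF genes, PRPF31, which holds the U4/U6 and U5 particles together, fell from 0.781 ± 0.274 to 0.277 ± 0.111 FPKM in May and from 0.993 ± 0.288 to 0.191 ± 0.0914 FPKM in July. The groups did not overlap in either month (limma, log2 difference -0.47 and -0.73, adjusted p = 0.0179 and 0.000458). These differences are on log2(FPKM + 1), which understates the change of a gene below 1 FPKM, and the GV means were 2.82 and 5.19 times the MII means. Without MII May replicate 2 the May result was at an adjusted p of 0.0503. PRPF6, a bridge in the same tri-snRNP, rose in May from 0.714 ± 0.383 to 1.97 ± 0.673 FPKM (limma, adjusted p = 0.015) and was at 1.39 ± 1.21 and 1.36 ± 0.516 FPKM in July (0.861). PRPF3, which binds U4/U6, rose in May from 0.897 ± 0.244 to 1.8 ± 0.486 FPKM (0.0282 in limma) and missed the threshold in July (0.137). The member highest in FPKM, PRPF38A, a factor needed to activate the spliceosome, was at 3.43 to 4.68 FPKM on average in the 4 groups and did not pass.

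None of the 10 SR genes passed in either month with all libraries, and 0 in May and 1 in July had an unadjusted p under 0.05 in limma. SRSF7, the highest in FPKM, had group means of 24.2 and 27.6 FPKM in GV and MII oocytes of May and 21.3 and 25.5 FPKM in July. SRSF1 and SRSF9 show how single libraries set the spread, with highest values of 73.5 and 84.1 FPKM in GV oocytes of May against medians of 5.27 and 4.19 FPKM, both in GV May replicate 6. These 2 genes were chosen after their values were seen. Without the 3 libraries 2 SR genes rose in each month. These were SRSF3 and SRSF11 in May and SRSF5 and SRSF6 in July. More genes of the table were higher in this setting as well.

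Of the 19 hnRNP genes, none passed in May, where 4 had an unadjusted p under 0.05 in limma, and 2, HNRNPR and HNRNPLL, rose in July. A positive difference was found in 16 of 19 in May and 17 of 19 in July, against 44.2% and 42.1% of all genes tested. The median was 0.44 and 0.49 on the log2 scale. HNRNPR rose in July from 0.462 ± 0.309 to 1.21 ± 0.572 FPKM (limma, adjusted p = 0.0359). HNRNPLL, at a median of 11.5 fragments a library, went from 0.0277 ± 0.0057 to 0.0602 ± 0.0153 FPKM in July (limma, adjusted p = 0.0108), and the same change was at an adjusted p of 0.502 with all 4 groups in one fit. HNRNPA1, the highest of the group in FPKM but 6th in fragments, had values from 8.27 to 49.5 FPKM in GV oocytes of May and from 8.54 to 58.6 FPKM in MII oocytes of July and did not pass. Without the 3 libraries 6 hnRNP genes rose in May and 9 in July, and HNRNPA3, HNRNPD, HNRNPF and HNRNPH3 did so in both. More genes of the table were higher in this setting as well. It also leaves out the libraries in which hnRNP genes stood highest, so the larger counts are not read as a result about hnRNP genes. HNRNPH3 had medians of 4.85 and 11.2 FPKM in GV and MII oocytes of May and 6.46 and 13.9 FPKM in July. Its adjusted p in limma was 0.099 and 0.106 with all libraries. Families of near-identical genes and processed pseudogenes, such as those of HNRNPA1, HNRNPH1 and HNRNPH2, can share reads, and how shared reads were counted is not given in the sources used here.

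Among the 3′ end factors, the clearest change was in a poly(A) polymerase. PAPOLG, a nuclear poly(A) polymerase, was at 3.51, 4.88 and 11.2 FPKM in GV and 15.2, 19.9 and 27.5 FPKM in MII oocytes of May, with no overlap and a log2 difference of 1.70 ± 0.25 (limma, adjusted p = 0.000629). In July it was at 5.16, 6.92 and 28.2 FPKM in GV and 7.23, 17.6 and 31.5 FPKM in MII oocytes, where the highest GV value was that of GV July replicate 2. The July difference was 0.86 ± 0.41 (adjusted p = 0.133). Without the 3 libraries PAPOLG rose in both months. PAPOLA, the main nuclear poly(A) polymerase, rose in July from 1.09 ± 0.232 to 2.16 ± 0.675 FPKM (limma, adjusted p = 0.0185) and went from 1.75 ± 0.684 to 2.5 ± 0.169 FPKM in May (0.125). PAPOLB, known from testis, was at 13.8 FPKM in GV May replicate 6 and at or below 1.8 FPKM in each other library, and it did not pass. It lies within the span of RADIL on the same strand.

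Of the cleavage stimulation factors, CSTF1 had group means of 2.36 ± 0.917 FPKM in GV and 4.39 ± 1.34 FPKM in MII oocytes of May and 2.67 ± 1.2 and 5.08 ± 2.26 FPKM in July. It rose in May (limma, log2 difference 0.69 ± 0.22, adjusted p = 0.0371) and was at 0.70 ± 0.28 in July (0.0756). The May result held in 10 of 20 settings. CSTF3, the scaffold that binds CSTF1 and CSTF2, had ratios of MII to GV means of 2.5 and 2.3 but missed the threshold in both months (0.0654 and 0.069). CSTF2, which binds the downstream element, did not overlap between the stages in May, at 0.305 to 0.702 against 0.73 to 2.58 FPKM, and had an adjusted p of 0.0606 in limma. Without the 3 libraries CSTF1 and CSTF3 rose in both months. CSTF2T, an intronless copy of CSTF2, was seen in a median of 6 fragments a library and did not pass.

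The CPSF genes had low FPKM. CPSF3, the nuclease, fell in July from 1.07 ± 0.374 to 0.479 ± 0.163 FPKM with no overlap (limma, log2 difference -0.48 ± 0.14, adjusted p = 0.0194), and in May it was at 0.609 ± 0.17 and 0.355 ± 0.139 FPKM (0.12). CPSF1, the large subunit, went from 0.54 ± 0.269 to 0.23 ± 0.108 FPKM in July (limma, adjusted p = 0.0451) and passed in 6 of 20 settings. CPSF3L fell from 0.156 ± 0.0693 to 0.0518 ± 0.027 FPKM in July (0.0128 in limma), at a median of 5 fragments a library, but not under quantile normalization (0.102) or with all 4 groups in one fit (0.0883). CPSF2, a partner of the nuclease, CPSF4 and CPSF6 differed by -0.28 to 0.10 in May and -0.49 to -0.15 in July and did not pass. Counted together, 1 of the 10 CPSF and CSTF genes rose and none fell in May, and none rose and 3 fell in July.

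**Figure D5:**
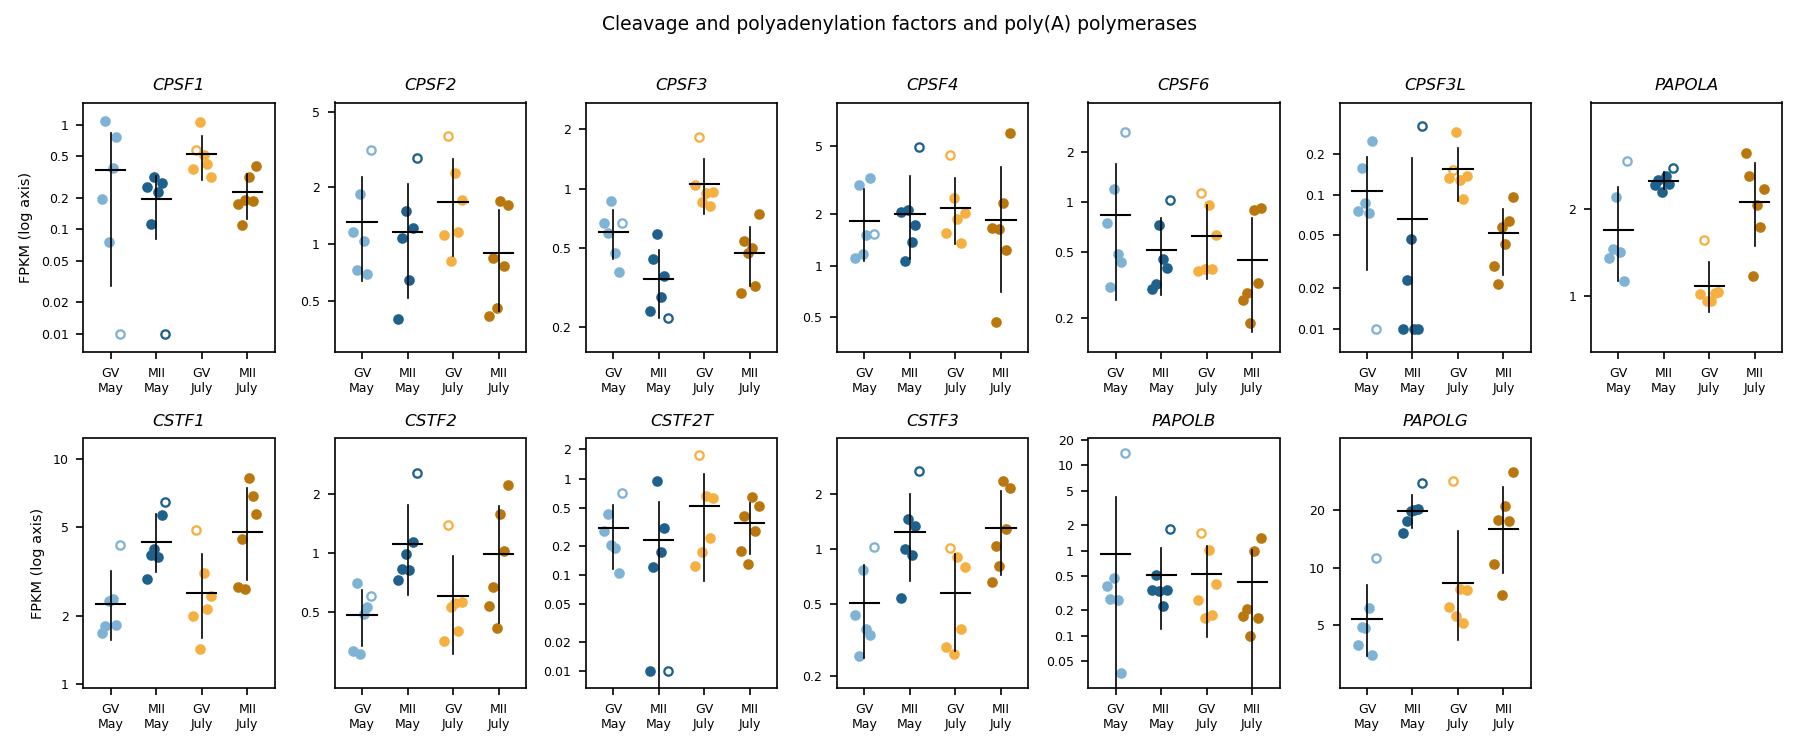
FPKM on a log axis of the CPSF and CSTF factors and the poly(A) polymerases in each of the 24 libraries, drawn as for the rings, with the mean and SD taken on the log2(FPKM + 1) scale and open circles for GV May 6, MII May 6 and GV July 2. PAPOLG is higher in MII oocytes of May without overlap, CPSF3 is lower in MII oocytes of July, and in PAPOLB 1 GV library of May stands at 13.8 FPKM.

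Groups that did not overlap between the stages were found in 5 members above and 6 below in May, against 4.65% and 8.98% of all genes, and in 7 above and 7 below in July, against 3.07% and 14.7%. Where groups do not overlap, the exact permutation test always returns its smallest two-sided p, 0.00216. For these members it therefore adds nothing to the lack of overlap.

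The second question of the design was season. In GV oocytes no member was called between May and July, where 0.0315% of all genes were, and 1 member had an unadjusted p under 0.05 in limma, against 1.55% of all genes. This was CPSF3, at 0.609 ± 0.17 FPKM in May and 1.07 ± 0.374 FPKM in July, with a log2 difference of 0.36 ± 0.15 (limma, unadjusted p = 0.0337, adjusted p = 1). The count ran from 0 to 6 over 21 alternative settings, and CPSF3 stayed under 0.05 in 15 of 20. SF3B2 and SF3B3 came next among the genes with higher values in July, at 0.995 and 2.24 FPKM and at 0.344 and 0.871 FPKM, and SNRPC, PAPOLA and HNRNPLL had the smallest p among those with lower values. GV July replicate 2 held the highest value of its group in SF3B2, SF3B3, CPSF3 and PAPOLA. The differences over all 87 members ran from -0.58 to 0.65 with a median of 0.03.

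In MII oocytes no member was called between the months, where 0.042% of all genes were, and 3 had an unadjusted p under 0.05, against 2.11% of all genes. LSM12 was at 8.09 ± 1.48 FPKM in May and 5.67 ± 1.74 FPKM in July, SRSF3, the smallest SR protein, at 3.32 ± 1.13 and 2.13 ± 0.499 FPKM, and SRSF5 at 4.47 ± 1.89 and 2.73 ± 0.724 FPKM. The log2 differences were -0.47 ± 0.19, -0.44 ± 0.18 and -0.51 ± 0.22, and the adjusted p of each was 1 in limma. The count ran from 1 to 9 over 21 settings, and the unadjusted p stayed under 0.05 in 12 for LSM12, 11 for SRSF3 and 12 for SRSF5. SNRPE, SNRPF and LSM8 had the smallest p among the genes with higher values in July, with log2 differences of 0.39, 0.39 and 0.30 and unadjusted p values of 0.0637, 0.0762 and 0.0834 in limma. The 87 differences ran from -0.51 to 0.43 with a median of 0.03. The groups of May and July overlapped for every member at both stages. Over all genes, only 0.136% lay wholly higher and 0.042% wholly lower in July in GV oocytes. In MII oocytes these shares were 0.0105% and 0.168%, so a lack of such members is near the background.

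A fit over all 24 libraries tested whether the change from GV to MII differed between the months. No member was called, where 0.21% of all genes were, and 2 had an unadjusted p under 0.05, against 1.8% of all genes. PRPF4, a U4/U6 protein, had a stage difference of 0.12 in May and -0.87 in July, and PRPF6 had 0.79 and 0.07. The difference of differences was -0.995 ± 0.43 and -0.72 ± 0.33 on the log2 scale, and the adjusted p was 1 for both in limma. The count ran from 0 to 7 over 32 settings. For PAPOLG, which passed in May only, it was -0.84 ± 0.49 (unadjusted p = 0.103). For SNRPF and SNRPE it was 0.45 ± 0.40 and 0.36 ± 0.35 (unadjusted p = 0.27 and 0.325 in limma), and for SF3B5 it was 0.09 ± 0.30. A result that passed in 1 month was thus not shown to differ from the other month.

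In GV oocytes the level of SF3B5 differed between July and May by -0.03 ± 0.23, of SNRPD2 by -0.21 ± 0.22, of LSM3 by -0.01 ± 0.30 and of U2AF1L4 by 0.09 ± 0.45 on the log2 scale. These intervals do not show that the levels were equal in the months.

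Other genes of the pathway, 85 of 111 on 6 lists, were measured. In May 16 rose and 12 fell at an adjusted p under 0.05 in limma, against 9.45% and 14.7% of all genes. In July 15 rose and 17 fell, against 7.67% and 23.1%, and 9 rose and 12 fell in both months, against 4.78% and 13.2%. The list of minor spliceosome and other snRNP proteins held 18 measured genes, of which 3 rose and 6 fell in both months. SNRNP25 and SNRNP35, proteins of the U11/U12 particle that serves rare introns, were at 273 ± 57.2 and 12.5 ± 4.21 FPKM in GV and 28 ± 13 and 2.1 ± 0.822 FPKM in MII oocytes of May, and at 280 ± 69.6 and 10.5 ± 2.18 against 31.8 ± 12.5 and 1.43 ± 0.708 FPKM in July. RNPC3, another protein of that particle, rose from 1.21 ± 0.198 to 3.35 ± 0.654 FPKM in May and from 1.44 ± 0.323 to 2.96 ± 0.773 FPKM in July. SNRNP27 of the tri-snRNP rose from 30.2 ± 8.96 to 55.3 ± 5.31 FPKM and from 28.9 ± 4.56 to 59.3 ± 9.25 FPKM.

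Of 27 measured genes of spliceosome assembly, catalysis and release, 5 rose and 5 fell in both months. CDC5L of the Prp19 complex rose from 5.6 ± 2.73 to 20.3 ± 3.53 FPKM in May and from 6.72 ± 2.44 to 19.2 ± 4.52 FPKM in July. CWC25, a step factor, rose from 4.56 ± 2.05 to 21.1 ± 3.1 FPKM and from 6.97 ± 2.04 to 14.7 ± 6.17 FPKM. BUD31 fell from 19.8 ± 5.32 to 5.21 ± 2.53 FPKM and from 22.8 ± 4.44 to 5.29 ± 1.31 FPKM. XAB2 fell from 4.94 ± 2.88 to 1.19 ± 1.14 FPKM and from 8.95 ± 9.88 to 1.31 ± 1.3 FPKM.

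Of 9 measured genes that load the Sm ring onto RNA, 1 fell in both months. This was GEMIN6 of the SMN complex, which went from 9.63 ± 1.62 to 2.74 ± 1.31 FPKM in May and from 10.9 ± 2.65 to 2.58 ± 1.77 FPKM in July. Of 5 genes of the exon junction complex, RBM8A rose in both months, from 21.7 ± 7.77 to 55.7 ± 10.4 FPKM and from 36.5 ± 9.25 to 59.9 ± 9.59 FPKM. Of 13 SR kinases and other regulators 1 rose in May and 2 in July, and of 13 other 3′ end and tail factors 1 rose in May and 2 fell in July, with no gene of either list passing in the same direction in both months. Between May and July none of the 85 passed an adjusted p of 0.05 in either stage. At each stage 2 had an unadjusted p under 0.05 in limma, against 1.55% of all genes in GV and 2.11% in MII oocytes.

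The length by which the values were divided, known up to a common factor from their steps, was related to the stage difference in the table as a whole. Because it follows the span of the gene, it says nothing of the length of the mRNA. Over 8595 genes the mean difference of the 2 months had a Spearman correlation of 0.34 with this relative length, and over the 84 members with an estimate it was 0.14 (Pearson 0.33 and 0.34), where all points share the same libraries. Among the 2865 genes of shortest relative length the median difference was -0.23 and 650 fell in both months, against 155 of the 2865 longest. A pseudocount of 1 weighs more on low FPKM values, and what it adds to this relation was not tested. The 36 members among the shortest genes had a median of 0.21, with 3 higher and 6 lower in both months. PRPF31, whose length estimate is not reliable, entered these values as a long gene.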

How the data were processed

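Polyadenylated RNA of pooled oocytes was sequenced, and the authors used STAR 2.5.3a with the UMD3.1.1 assembly and gave gene levels as FPKM. The deposited FPKM values summed to 86768.1 to 86768.2 in every library and were never under 0.01, which points to a scaling to a common total and an added 0.01 that the sources used here do not describe. The steps between low values further show division by the genomic span of each gene, where exon length is usual. Depth is given here only in relative terms, from the steps between low values (84 members solved, 80 of them with every value within 0.1 of a whole number of fragments). The paper also reports read numbers per sample, which are not set against these depths here. No columns were left unused.

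Genes above 0.1 FPKM in at least 1 of 24 libraries went into trended fits of log2(FPKM + 1) with 2 groups each (limma 3.58.1, R 4.3.3), and over all 4 groups for the season difference. A gene was called where p was under 0.05 before adjustment and the fold change of FPKM + 1 exceeded 2. Genes at or below 1 FPKM in every library thus cannot be called. Benjamini-Hochberg adjusted p values were taken over all 9526 genes. The fits were tested on simulated data. Descriptions used Python 3.11.15.

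Named members were the up to 10 per direction with the largest mean difference among those passing in both months, all PAPOL, CPSF and CSTF genes, the member of each group highest in FPKM, and, by season, the 3 with the smallest p per direction or for the season difference, with all called. Pathway genes were the first 2 per list and direction. Members passing in 1 month, ring and complex partners, and members that changed without the 3 libraries were added after their values were seen. Members and lists were chosen with earlier results of these data known. Libraries are separate pools, and p values measure the spread between them. Alternatives covered the pseudocount, filter, scaling, pooled fit, fold rule, replicate block and left-out libraries. Sequences were not used here.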

Additional observations from a re-analysis of the deposited data

Results flagged for a closer look

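In 156 groups of 6 libraries (39 named members in 4 groups), 22 had a highest or lowest library that stood apart from the others by more than Dixon's 95% critical value on the log2(FPKM + 1) scale. Chance gives about 1 in 20 such groups, and 16 of the 22 lay in GV May replicate 6, MII May replicate 6 or GV July replicate 2.

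In GV July replicate 2 the value was the highest of its group for PAPOLG (28.2 FPKM), HNRNPA1 (38.9), SRSF5 (6.38), LSM12 (4.24), PRPF6 (3.81), CPSF3 (1.82), PAPOLA (1.56) and CSTF2 (1.4), and the lowest for U2AF1L4 (3.73). In GV May replicate 6 it was the highest for PAPOLB (13.8 FPKM) and CSTF1 (4.13) and the lowest for LSM10 (4.17) and SRSF7 (12.5). In MII May replicate 6 the highest values were those of CSTF2 (2.58 FPKM), PAPOLB (1.8) and CPSF3L (0.324). What the low depth or low mapping of these libraries adds to these values was not tested.

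The remaining libraries gave single values. SNRPD1 was highest in MII July replicate 5 at 111 FPKM, LSM3 in MII May replicate 3 at 25.2 FPKM, SRSF3 in GV July replicate 5 at 1.91 FPKM and CPSF3L in GV July replicate 3 at 0.292 FPKM. PRPF38A was lowest in MII May replicate 3 at 2.87 FPKM and SF3B3 in GV May replicate 5 at 0.194 FPKM.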

How the results depend on the processing

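The counts of lower members held within 1.5 times under every alternative except 1, since the ratio of group means called 13 members lower in July against 8. The counts of higher members depended on the setting. At an adjusted p under 0.05 they were 22 in May and 35 in July under quantile normalization (10 and 11 as reported), 24 and 25 without the 3 libraries of lowest depth, and 24 and 21 without the 5 libraries of lowest depth, an alternative chosen after seeing the data. By the thresholds of the study the 4 called higher in May became 13 with a pseudocount of 0.1, 2 under median-of-ratios scaling, 10 under quantile normalization, 8 without the 3 or 5 libraries, and 10 with the ratio of group means. The 4 of July became 8, 14, 10, 1 and 8 with the pseudocount, quantile normalization, without the 3 libraries, without the 5, and with the ratio of means. No member was called by season under any alternative, except that the season difference had 2 called with a pseudocount of 0.1 and 0 to 2 when a library was left out. When each library was left out in turn there were 6 to 23 higher and 6 to 9 lower members in May and 9 to 25 and 10 to 13 in July at the adjusted threshold, and 2 to 9, 6 to 7, 3 to 10 and 6 to 9 called members. It gave 0 called by season at each stage. Except where stated above, the shares of all genes under these settings are not given here. The moves are thus not read as particular to the members. For these moves the cause was not tested, beyond the libraries that each setting leaves out.

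With the replicate number as a block, 18 members were higher in May and 18 in July at the adjusted threshold, with 10 and 11 lower. The shares of all genes with this block are not given here. Whether equal numbers mark the same cow is not given. Correlations of same-numbered deviations averaged 0.16, 0.23, -0.005 and 0.34 in the 4 comparisons, against -0.003, -0.03, 0.03 and -0.05 for other pairs. The lowest were -0.17, -0.28, -0.32 and -0.44, and 2, 1, 1 and 4 of the 6 samples correlated best with their own number. A pairing of the samples by number was thus neither shown nor excluded. Depth limits the weakest members, since 3 of 84 had a median under 20 fragments a library.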
